A study of Mus musculus with 12 samples.

Results

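The chemokines examined here are those induced by interferon gamma together with the chemokines that draw monocytes: Cxcl9, Cxcl10, Cxcl11 and their receptor Cxcr3, with Ccl2, Ccl7, Ccl8, Ccl12, Ccl5 and Cxcl16. The 10 genes were chosen by name, and 9 of them were each read from 1 of the 32288 rows of the count files. Cxcl11 was not analysed here. RNA was sequenced from 12 subcutaneous tumors of P815, a mouse mastocytoma line, each from a DBA/2 mouse of 8 to 10 weeks that carried a single tumor. P815-IFNG cells are 1 clone that carries the light-sensitive transactivator GAVPO under the EF-1α promoter and, under a promoter that GAVPO binds in blue light, a cassette of Ifng, Cxcl10 and the reporter hGluc. P815-M cells are 1 clone without that module, and both lines carry the mRuby and firefly luciferase reporter. From 7 days after implantation, P815-IFNG light and P815-M light mice were kept in blue light for 12 hours of each day over 6 days, and P815-IFNG dark and P815-M dark mice had no illumination. Each of the 4 groups had 3 mice. The sex of each mouse is not given in the sources used here.

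Chemokines are small secreted proteins that direct leukocytes along a gradient through receptors on the cell surface. Interferon gamma induces Cxcl9, Cxcl10 and Cxcl11, whose proteins attract activated T cells and NK cells through CXCR3. CCL2, CCL7 and CCL12 draw monocytes out of blood through CCR2, and many stromal and myeloid cells make them in inflamed tissue and in tumors.

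Cxcl9 and Cxcl10 are neighbors on the minus strand of chromosome 5 in GRCm38, at chr5:92321347-92328079 and chr5:92346638-92348889. Ccl2 (chr11:82035571-82037453), Ccl7 (chr11:82045712-82047525), Ccl12 (chr11:82101845-82103400) and Ccl8 (chr11:82115185-82116799) form a run on the plus strand of chromosome 11. Ccl5 (chr11:83525778-83530518) and Cxcl16 (chr11:70453983-70459984) lie on its minus strand, and Cxcr3 (chrX:101731535-101734269) lies on the minus strand of chromosome X. Each count covers the exons of a gene. The 250 bases before the start of 3 genes are shown to set the interferon-induced pair, Cxcl9 and Cxcl10, beside Ccl8, the monocyte chemokine with the highest level per length. The sequences are from RefSeq on GRCm38.p6, the C57BL/6J reference, read 5′ to 3′ on the strand of the gene at chr5:92328080-92328329, chr5:92348890-92349139 and chr11:82114935-82115184. Capitals mark matches to the interferon-stimulated response element core (GAAA, 2 bases of any kind, GAAA) or to the κB consensus.
Cxcl9: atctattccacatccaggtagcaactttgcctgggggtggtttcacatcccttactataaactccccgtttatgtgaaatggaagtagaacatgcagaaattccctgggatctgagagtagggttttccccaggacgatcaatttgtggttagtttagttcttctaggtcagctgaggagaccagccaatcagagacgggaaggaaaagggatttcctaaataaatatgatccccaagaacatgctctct
Cxcl10: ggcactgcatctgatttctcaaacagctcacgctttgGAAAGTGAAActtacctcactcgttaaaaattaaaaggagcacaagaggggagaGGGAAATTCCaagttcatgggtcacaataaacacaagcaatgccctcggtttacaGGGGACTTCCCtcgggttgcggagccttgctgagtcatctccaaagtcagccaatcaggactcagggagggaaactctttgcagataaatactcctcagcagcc
Ccl8: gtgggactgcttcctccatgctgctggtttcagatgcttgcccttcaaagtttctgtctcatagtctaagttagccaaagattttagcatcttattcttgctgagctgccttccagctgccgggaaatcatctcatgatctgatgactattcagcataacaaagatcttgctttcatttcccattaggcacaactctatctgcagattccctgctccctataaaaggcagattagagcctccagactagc

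Promoter windows were held for 5 of the 10 genes (Cxcl9, Cxcl10, Ccl8, Ccl12 and Cxcr3), and among these only that of Cxcl10 had a match. Its response element core lay 213 to 204 bases before the start and its κB matches began 159, 104 and 103 bases before it, the last 2 of these overlapping each other and the last also matching on the other strand. On both strands, the core was found in 2.98% of 32851 promoter windows of the same length and the κB consensus in 7.25%. The gamma-activated site TTCNNNGAA, found in 7.02% of windows, had no match in the 5. A match describes the letters only.

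The libraries fell into separate depths. P815-IFNG light replicate 3 and P815-IFNG dark replicate 3 held 41473500 and 42338096 counts, and the other 10 held 2211234 to 2946792, so that 3 counts stood for 0.0709 or 0.0723 CPM (counts per 1000000) in the deep libraries and for 1.02 to 1.36 CPM in the others. The mitochondrial gene mt-Nd6, which lies on the strand opposite most mitochondrial genes, took 3.56% and 3.85% of mitochondrial counts in the deep libraries and 29% to 47.9% in the others. Among those others it also separated light from dark in both lines, at 40.5% to 47.9% in light and 29% to 36.7% in dark, and its part in the light against dark values below was not tested. The labelled kit keeps the strand and reads it in the direction opposite to the one that HTSeq counts at its default. Counts of any gene in the 10 libraries may therefore be in large part reads of the other strand, in a share that was not tested. Their CPM values below cannot be taken as levels of the named gene's own RNA alone. A difference between the deep libraries and the others cannot be told apart from a difference in strand. GAVPO stood at 392 to 1783 CPM in P815-IFNG libraries and at 0 to 1.65 CPM in P815-M libraries, in the direction of the labels. Of 10 mast cell markers, Kit, Cpa3, Gata2 and Cma1 were at 207 CPM or more in all 12 libraries, while Fcer1a was at 0 in 10 libraries and Ms4a2 in 7. CPM values below use library sizes scaled by edgeR's TMM method.

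None of the 9 genes passed the test, an adjusted p of at most 0.05 and a log2 fold change of 1 or more in size by edgeR's quasi-likelihood test, in any of the 5 comparisons. The share of the 18804 tested genes called was 0% for light against dark in P815-IFNG and 0% in P815-M. It was 0.0160% between P815-IFNG and P815-M tumors in light, 0.0106% between them in dark, and 0% for how far the response to light differed between the lines. At an unadjusted edgeR p under 0.05, 409, 510, 1276, 1290 and 313 of the 18804 genes stood out in the same order, with Ccl2 in the first comparison as the only one of the 9. Changes below are therefore given as levels and fitted values with their standard errors. The p-values of every comparison rest on a spread estimated over all 12 libraries. They measure the spread between the 3 mice of each group together with the difference between the deep libraries and the others. With only the libraries compared, 244 genes were called for P815-M light against dark, and Cxcl9 there had an edgeR adjusted p of 0.0982.

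**Figure D1:**
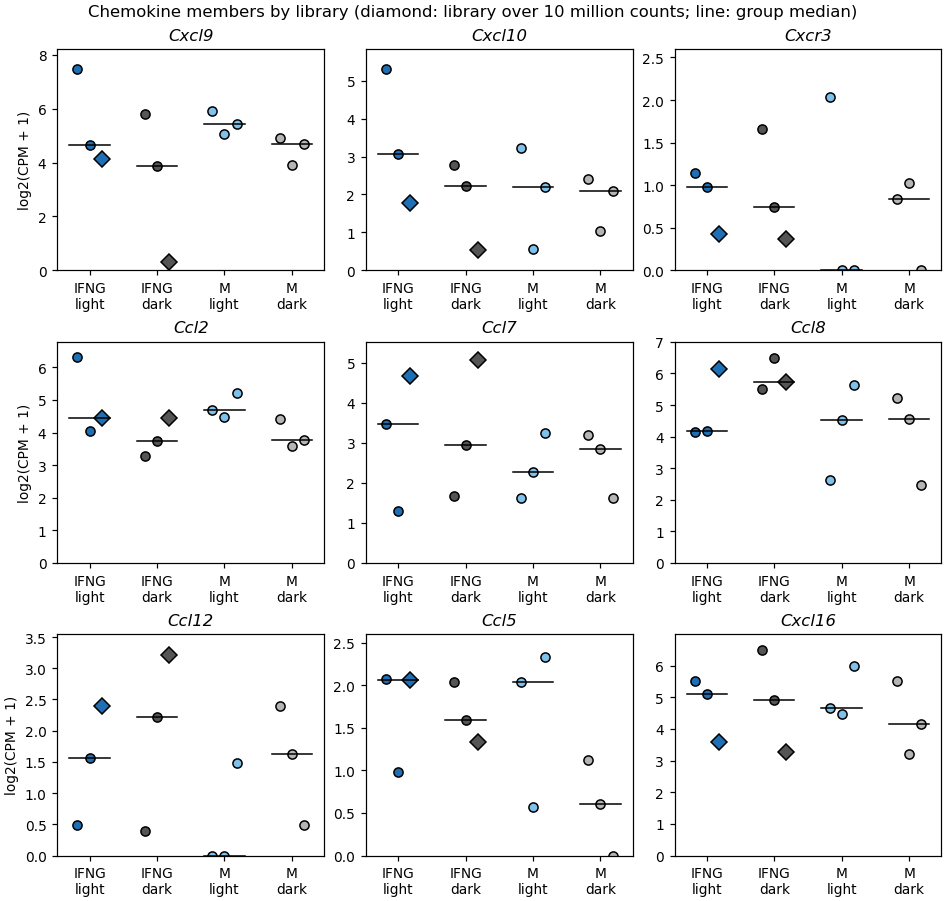
Level of each chemokine or receptor as log2(CPM + 1) in each of the 12 libraries by group, with replicates 1 to 3 from left to right, diamonds for the 2 libraries with over 10000000 counts and a line at the group median. Cxcl9 and Cxcl10 are highest in P815-IFNG light replicate 1, at 176 and 39 CPM, and lowest in the deep dark library, at 0.246 and 0.446 CPM.

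Cxcl9, whose protein attracts activated T cells through CXCR3, was read at 176, 24.4 and 16.4 CPM in P815-IFNG light replicates 1 to 3 and at 54.6, 13.7 and 0.246 CPM in P815-IFNG dark. It stood at 59.2, 32.6 and 42.5 CPM in P815-M light and at 28.9, 14.1 and 24.7 CPM in P815-M dark. The light and dark groups overlapped in P815-IFNG, where 1 light library was far above the rest and the deep dark library far below, while every P815-M light library was above every P815-M dark library. The labels number the replicates without calling them pairs. Set side by side by number, Cxcl9 was higher in P815-IFNG light than dark in all 3, as were 11.7% of all genes tested. By group means, the order was P815-IFNG light (72.3 CPM ± 90, SD, n = 3), P815-M light (44.7 ± 13.4, SD, n = 3), P815-IFNG dark (22.9 ± 28.3, SD, n = 3) and P815-M dark (22.5 ± 7.64, SD, n = 3), with the highest mean resting on replicate 1. Each group in this order overlapped its neighbors. The fitted log2 change from dark to light was 1.68 (SE 1.26, adjusted p = 1) in P815-IFNG and 0.98 (SE 1.25, adjusted p = 1) in P815-M. The difference between these, 0.69 on the log2 scale (SE 1.75, adjusted p = 1), did not pass the test, and the P815-IFNG value was -0.21 without P815-IFNG light replicate 1. After ComBat-seq adjustment with the deep libraries as a batch, the P815-IFNG change was 4.31 and passed the test (adjusted p = 7e-10), as did the difference between the lines, at 3.41 (adjusted p = 0.00242). The P815-IFNG change did not pass with that batch as a term in the fit (2.63, adjusted p = 0.188). It did not pass without the deep libraries either (1.56, adjusted p = 0.426). P815-IFNG against P815-M differed by 0.69 (SE 1.23, adjusted p = 0.825) in light and by -0.01 (SE 1.24, adjusted p = 1) in dark. The value in light became 3.13 (adjusted p = 7.9e-07) after ComBat-seq adjustment. It was 1.75 (adjusted p = 0.347) with batch as a term and 1.19 (adjusted p = 0.5) without the deep libraries.

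Cxcl10 encodes another CXCR3 ligand and is also a product of the light-controlled cassette, which has a row of its own in the count files. Its level was 39, 7.32 and 2.45 CPM in P815-IFNG light, against 5.89, 3.68 and 0.446 CPM in P815-IFNG dark. It was 8.3, 0.479 and 3.58 CPM in P815-M light and 4.29, 1.04 and 3.29 CPM in P815-M dark. Light was above dark in each of the 3 pairs of P815-IFNG libraries with the same number, as for Cxcl9, Ifng and Irf1. None of the other 7 genes had 1 sign in all 3 pairs. Among all genes tested, 11.7% had light above dark in all 3 pairs and 16.6% had light below. The labels do not call these libraries pairs, and the signs were not tested against these shares. With the replicate number as a block the log2 change in P815-IFNG was 1.73 for Cxcl9 and 1.99 for Cxcl10, each with an adjusted p of 1. In each comparison the groups overlapped, and outside P815-IFNG light replicate 1 and the deep libraries every value rested on 1 to 19 counts. The log2 change with light was 2.34 in P815-IFNG (SE 1.19, adjusted p = 1) and 0.48 in P815-M (SE 1.24, adjusted p = 1), and the difference between the lines was 1.86 (SE 1.70, adjusted p = 1). Without P815-IFNG light replicate 1 the P815-IFNG value was 0.51 and the difference 0.05. In light, P815-IFNG tumors were 1.97 (SE 1.19, adjusted p = 0.629) above P815-M tumors on the log2 scale, and in dark 0.11 (SE 1.23, adjusted p = 0.974). After ComBat-seq adjustment, light against dark in P815-IFNG (2.37, adjusted p = 0.0005) and P815-IFNG against P815-M in light (2.46, adjusted p = 0.00125) passed the test. With batch as a term they were 2.33 (adjusted p = 0.194) and 2.54 (adjusted p = 0.113) and did not pass. Without the deep libraries they were 2.27 (adjusted p = 0.361) and 2.52 (adjusted p = 0.188), again not past the test.

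The cassette row itself held 4.42, 2.93 and 5.28 CPM in P815-IFNG light and 2.79, 2.01 and 2.81 CPM in P815-IFNG dark. With TMM scaling all 3 light libraries were above all 3 dark libraries, as were those of 0.994% of all genes tested. By plain library totals they overlapped, with light replicate 2 at 2.7 CPM and dark replicates 1 and 3 at 3.05 and 2.98 CPM. Outside the deep pair the row held 11 and 6 counts in light and 9 and 6 in dark. The log2 change was 0.74 (SE 0.82, adjusted p = 1). P815-M light libraries had 0 cassette counts, which allows up to 1.27 to 1.36 CPM, and P815-M dark libraries had 2, 0 and 0 counts. Ifng, the other cassette product, stood at 14.9, 1.95 and 1.76 CPM in P815-IFNG light and at 1.86, 1 and 0.67 CPM in P815-IFNG dark, a log2 change of 2.43 (SE 1.05, adjusted p = 1). The change was 0.65 without P815-IFNG light replicate 1. Outside that library and the deep pair, Ifng had 4 counts in light and 6 and 3 in dark. The lowest light value of Ifng lay just below the highest dark value. How reads from the Cxcl10 and Ifng parts of the cassette were divided between its row and the rows of these genes is not given in the sources used here.

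Irf1, a transcription factor that interferon gamma induces, had log2 changes of 1.33 (SE 0.58) in P815-IFNG and 0.98 (SE 0.58) in P815-M, with an adjusted p of 1 in both. The P815-IFNG value was 0.61 without P815-IFNG light replicate 1. Every P815-M light library was above every P815-M dark library for Irf1, while the P815-IFNG groups overlapped. Of all genes tested, 10.1% had light above dark throughout in P815-M and 0.994% in P815-IFNG. Over the 10 libraries outside the deep pair, the genes whose log2(CPM + 1) followed Cxcl9 most closely among 11997 genes were Cap1 (r = 0.96), Cd274 (r = 0.94), Trim21 (r = 0.93), Gbp2 (r = 0.92) and Psme2 (r = 0.91), and for Cxcl10 they were Nr1h2 (r = 0.91), Crip1 (r = 0.89), Ranbp6 (r = 0.87), Tmem167b (r = 0.87) and Trim30a (r = 0.86). Cxcl9 and Cxcl10 had r = 0.76 with each other, and these values describe libraries that share lines, conditions and a common high value in P815-IFNG light replicate 1.

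A ratio within a library does not depend on how libraries are scaled, so the share of Cxcl10 among the counts of Cxcl9 and Cxcl10 was compared. It was 18.1% (95% exact binomial interval 15 to 21.7), 23.1% (13.5 to 35.2) and 13% (10.8 to 15.5) in P815-IFNG light. The dark tumors of that line had 9.74% (5.97 to 14.8), 21.2% (11.1 to 34.7) and, in the deep library, 64.5% (45.4 to 80.8), where Cxcl9 had 11 counts and Cxcl10 20. These intervals cover counting error only. The shares were 12.3%, 1.45% and 7.77% in P815-M light and 12.9%, 6.9% and 11.8% in P815-M dark.

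All 3 P815-IFNG light libraries were above all 3 P815-M light libraries, by 10.9 percentage points on average (18.1% against 7.17%, two-sided exact permutation p = 0.1, adjusted p = 0.4 over 4 comparisons). For 3 against 3 libraries 0.1 is the smallest p possible. In dark the lines differed by 21.3 points (exact permutation p = 0.3, adjusted p = 0.6) with overlapping groups, and by 4.91 points without P815-IFNG dark replicate 3. Light against dark gave -13.7 points in P815-IFNG (exact permutation p = 0.8, adjusted p = 0.8), 5.16 points without the 2 deep libraries, and -3.36 points in P815-M (exact permutation p = 0.6, adjusted p = 0.8).

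**Figure D2:**
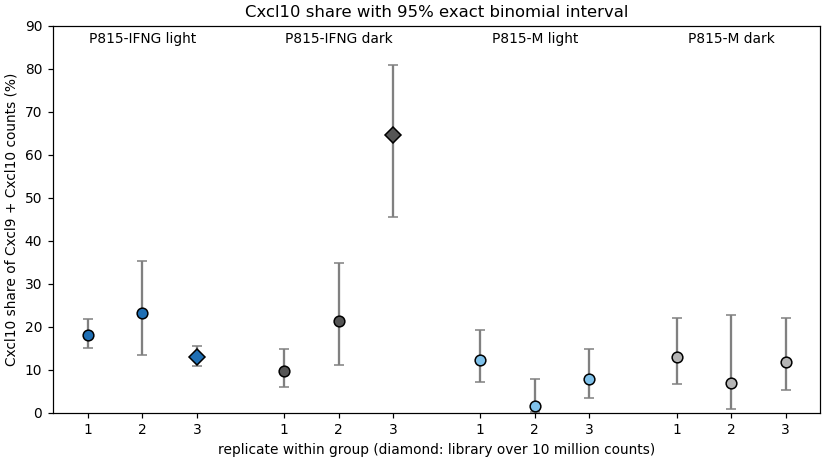
Cxcl10 as a percentage of the summed counts of Cxcl9 and Cxcl10 in each of the 12 libraries, with 95% exact binomial intervals and diamonds for libraries with over 10000000 counts. The deep P815-IFNG dark library is highest at 64.5%, and the P815-IFNG light libraries, at 13% to 23.1%, lie above the P815-M light libraries, at 1.45% to 12.3%.

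Cxcr3, the receptor of both ligands on activated T and NK cells, was near the limit of detection. It had 3, 2 and 15 counts in P815-IFNG light, 7, 2 and 13 in P815-IFNG dark, 6, 0 and 0 in P815-M light and 2, 2 and 0 in P815-M dark. In 3 of the 12 libraries there was no count, and a difference between groups was not detectable at this depth. The fitted log2 change with light was -0.34 (SE 1.46, adjusted p = 1) in P815-IFNG. The summed level of 11 T and NK cell markers, 14.1 to 61.9 CPM in P815-IFNG light and 18.3 to 56.1 CPM in P815-IFNG dark, overlapped as well. In bulk tumor RNA, fewer cells of a type and less RNA per cell cannot be told apart.

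Ccl2, the main ligand of CCR2 on monocytes, was read at 78.8, 15.6 and 20.7 CPM in P815-IFNG light and at 8.69, 12.4 and 20.9 CPM in P815-IFNG dark. In P815-M it was 24.9, 21.1 and 36.2 CPM in light and 20.3, 10.9 and 12.8 CPM in dark. The deep libraries of P815-IFNG had nearly equal levels, the other 2 light libraries were above the other 2 dark libraries, and the P815-M light libraries were all above the dark ones. In P815-M this rested on the TMM scaling. By plain library totals light replicate 2, at 18.9 CPM, lay below dark replicate 1, at 20.1 CPM. In P815-IFNG the log2 change was 1.43 (SE 0.59, adjusted p = 1), which became 2.17 without the deep libraries (adjusted p = 0.246) and 0.35 without P815-IFNG light replicate 1. The P815-M value was 0.90 (SE 0.59, adjusted p = 1) and the difference between the lines 0.53 (SE 0.83, adjusted p = 1). P815-IFNG against P815-M differed by 0.48 (SE 0.58, adjusted p = 0.747) in light and by -0.05 (SE 0.59, adjusted p = 0.973) in dark.

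With TMM scaling, Cxcl9 and Ccl2 were the 2 genes of the 9 with every P815-M light library above every dark one, against 10.1% of all genes tested. For Ccl2 this did not hold by plain library totals. None of the 9 was below throughout, against 8.06% of all genes. Markers of monocytes and macrophages were higher in the same libraries. The sum of 10 such markers was 1628 to 1877 CPM in P815-M light and 740 to 1057 CPM in P815-M dark. All 10 had a positive fitted change, with a median of 0.91 on the log2 scale, and Cd68, Itgam, Lyz2, C1qa, C1qb and Cd14 were higher in every light library. None of the 10 was at 0 in any library, and their part in the change of Cxcl9 and Ccl2 was not tested. In P815-IFNG their sum was 824 to 2044 CPM in light and 694 to 1826 CPM in dark, with no separation of the groups.

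Ccl8, a monocyte chemokine encoded beside Ccl12, had the highest level per length of the 9. It reached 16.9, 17.1 and 69.7 CPM in P815-IFNG light and 44.7, 88.1 and 52.2 CPM in P815-IFNG dark. In P815-M it was 5.19, 22 and 48.7 CPM in light and 36.3, 22.4 and 4.53 CPM in dark. Among the libraries of lower depth the 2 P815-IFNG light values lay below the 2 dark values, the opposite order to Ccl2, but the deep light library was above its dark counterpart. The log2 change with light was -0.81 (SE 0.83, adjusted p = 1) in P815-IFNG, or -1.98 without the deep libraries (adjusted p = 0.372), and 0.27 (SE 0.85, adjusted p = 1) in P815-M. In dark, all P815-IFNG libraries were above all P815-M libraries, by 1.55 on the log2 scale (SE 0.86, adjusted p = 0.604).

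Ccl7, another CCR2 ligand, differed more between depths than between conditions. The deep libraries held 24.7 CPM in light and 32.9 CPM in dark, and the other 10 held 1.46 to 10.1 CPM. Its log2 change with light was -0.20 (SE 0.99, adjusted p = 1) in P815-IFNG and -0.19 (SE 1.09, adjusted p = 1) in P815-M. Ccl12, a mouse ligand of CCR2, likewise stood at 4.28 and 8.3 CPM in the deep light and dark libraries. In the other 10 it ranged from 0 to 4.29 CPM, on at most 11 counts, and was at 0 in P815-M light replicates 1 and 2. Its log2 change was -0.83 (SE 1.21, adjusted p = 1) in P815-IFNG and -1.85 (SE 1.50, adjusted p = 1) in P815-M, where it was -0.96 without P815-M dark replicate 1 and had no count left in light without P815-M light replicate 3. Summed over Ccl2, Ccl7, Ccl8 and Ccl12, the monocyte chemokines came to 106, 36.1 and 119 CPM in P815-IFNG light and 55.8, 111 and 114 CPM in P815-IFNG dark, and to 32.2, 46.9 and 95.2 CPM in P815-M light and 69.1, 41.7 and 19.7 CPM in P815-M dark. The groups overlapped in both lines.

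Ccl5, made by T cells, NK cells and other leukocytes and bound by CCR1 and CCR3 among other receptors, stood at 3.22, 0.976 and 3.19 CPM in P815-IFNG light and at 3.1, 2.01 and 1.52 CPM in P815-IFNG dark. The values in P815-M were 3.11, 0.479 and 4.02 CPM in light and 1.17, 0.521 and 0 CPM in dark. No library outside the deep pair had more than 10 counts. The log2 change with light was 0.22 (SE 0.89, adjusted p = 1) in P815-IFNG and 2.13 (SE 1.06, adjusted p = 1) in P815-M, where it was 3.35 without P815-M dark replicate 1, and the lines differed in it by -1.91 (SE 1.39, adjusted p = 1). In dark, every P815-IFNG library was above every P815-M library, with a log2 difference of 1.90 (SE 1.04, adjusted p = 0.604). Ccl5 and Ccl8 were the 2 of the 9 with this separation in dark, against 10.9% of all genes tested, and none of the 9 was lower in all P815-IFNG dark libraries, against 10.3%.

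Cxcl16, a membrane-bound chemokine that binds CXCR6, had 44.2, 33.2 and 11 CPM in P815-IFNG light and 89.3, 28.8 and 8.64 CPM in P815-IFNG dark. It had 24.4, 21.1 and 63 CPM in P815-M light and 44.9, 8.33 and 16.9 CPM in P815-M dark. The groups overlapped in all 4 comparisons and the deep libraries were the lowest of the P815-IFNG groups. The log2 change with light was -0.53 (SE 0.85, adjusted p = 1) in P815-IFNG and 0.63 (SE 0.86, adjusted p = 1) in P815-M.

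The deep libraries are both P815-IFNG, so comparisons between the lines shifted with them, both for genes that stood high and for genes that stood low in those libraries. Among the low ones, leaving them out moved Cxcl9 from 0.69 to 1.19 and Cxcl10 from 1.97 to 2.52 in light. In dark it moved Cxcl9 from -0.01 to 0.58 and Cxcl16 from 0.84 to 1.30, with none of these past the test. Ccl7 was 1.37 (SE 1.06, adjusted p = 0.658) higher on the log2 scale in P815-IFNG than in P815-M tumors in light and 1.38 (SE 1.05, adjusted p = 0.604) in dark, and without the deep libraries these values were 0.28 and -0.31. For Ccl12 they were 1.92 (SE 1.46, adjusted p = 0.656) and 0.90 (SE 1.26, adjusted p = 0.735), and 0.80 and -0.20 without the deep libraries. In light, the lines differed by 0.47 for Ccl8 (SE 0.84, adjusted p = 0.826), which was -0.59 without the deep libraries, and by -0.01 for Ccl5 (SE 0.93, adjusted p = 1). Cxcl16 differed between the lines by -0.31 (SE 0.85, adjusted p = 0.887) in light and 0.84 (SE 0.86, adjusted p = 0.652) in dark, and Cxcr3 by -0.39 (SE 1.52, adjusted p = 0.924) and 0.71 (SE 1.54, adjusted p = 0.834). The response to light differed between the lines by -1.08 for Ccl8 (SE 1.19), -1.15 for Cxcl16 (SE 1.21), -1.10 for Cxcr3 (SE 2.16), 1.02 for Ccl12 (SE 1.91) and -0.01 for Ccl7 (SE 1.52), each with an adjusted p of 1.

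**Figure D3:**
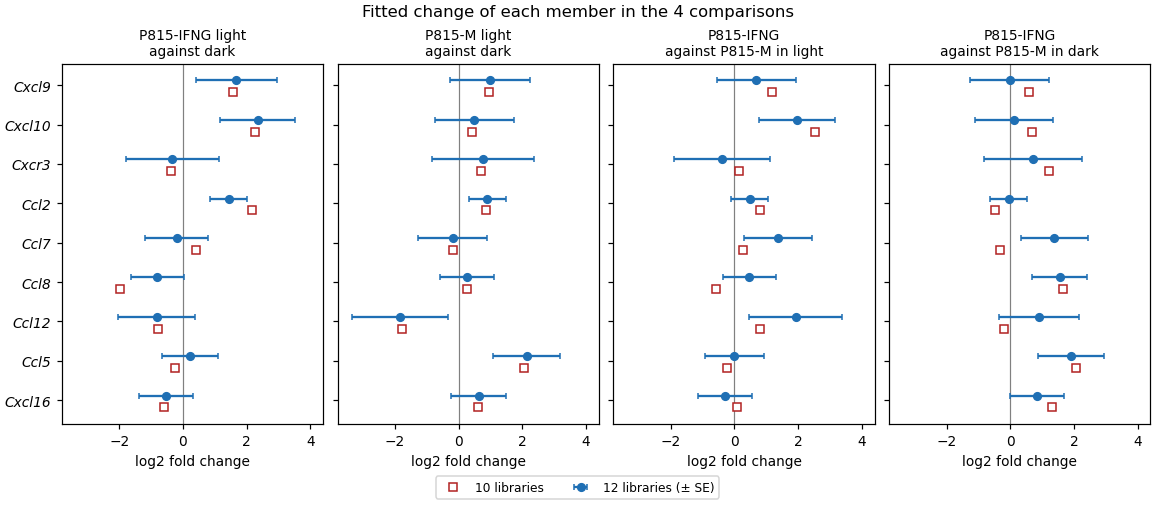
Fitted log2 fold change of each of the 9 genes in the 4 comparisons, with filled points and bars for the estimate ± SE from all 12 libraries and open squares for the estimate from the 10 libraries with under 10000000 counts. Cxcl10 is furthest to the right for P815-IFNG light against dark, at 2.34 in 12 libraries, and Ccl8 moves from -0.81 to -1.98 when the deep libraries are left out.

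As a group, 4 of the 9 genes had a positive fitted change with light in P815-IFNG (median -0.20 on the log2 scale, against -0.02 over all genes tested) and 7 in P815-M (median 0.63, against 0.01). Between the lines, 6 were positive in light (median 0.48, against 0.15) and 7 in dark (median 0.84, against 0.33). No gene of the 9 was separated by light in P815-IFNG, against 0.994% of all genes above and 2.75% below. The same held for P815-IFNG against P815-M in light, against 9.23% above and 7.70% below. These comparisons share groups and are not independent. Per kilobase of exon, the median level over the 12 libraries ran from 57.4 CPM for Ccl8 through 18 for Ccl2, 8.88 for Cxcl9, 8.8 for Cxcl16, 8.08 for Ccl7, 3.48 for Ccl12, 1.84 for Ccl5 and 1.61 for Cxcl10 to 0.419 for Cxcr3. Each gene's range over the libraries overlapped that of its neighbor in this order.

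The 2 deep libraries, 1 light and 1 dark tumor of P815-IFNG, gave the most counts and no replicate. Cxcl9 had 710 counts in light and 11 in dark, a light to dark ratio of 65.9 after division by the plain library totals (95% interval 36.6 to 133). Cxcl10 had 106 and 20 counts, a ratio of 5.41 (3.33 to 9.21). Both interferon-induced ligands were thus higher in the light tumor of this pair, by a larger ratio for Cxcl9. Ccl5 followed with 2.07 (1.54 to 2.81), Ccl8 with 1.31 (1.24 to 1.39) and Cxcl16 with 1.26 (1.1 to 1.44). Ccl2 was at 0.975 (0.889 to 1.07) and Cxcr3 at 1.18 (0.523 to 2.69), both with 1 inside the interval, while Ccl7 was at 0.738 (0.682 to 0.8) and Ccl12 at 0.508 (0.423 to 0.607). The intervals cover counting error only and compare 2 tumors, not the conditions.

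The limit of strand can be seen for any gene with a neighbor on the other strand, which among the 9 are Cxcl10 and Cxcl16. Exons of Art3, on the plus strand, overlap 133 bases or 5.91% of the Cxcl10 exons, and exons of Zmynd15 overlap 552 bases or 18.3% of those of Cxcl16. Art3 had 2.88 to 34 counts for each Cxcl10 count in the 10 libraries of lower depth, and 0.849 and 2.15 in the deep light and dark libraries. Zmynd15 had 4.37 to 9.69 counts for each Cxcl16 count in the 10 libraries and 0.105 and 0.106 in the deep pair. Both ratios thus divided the libraries along the line of depth and of mt-Nd6, most clearly for Zmynd15.

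**Figure D4:**
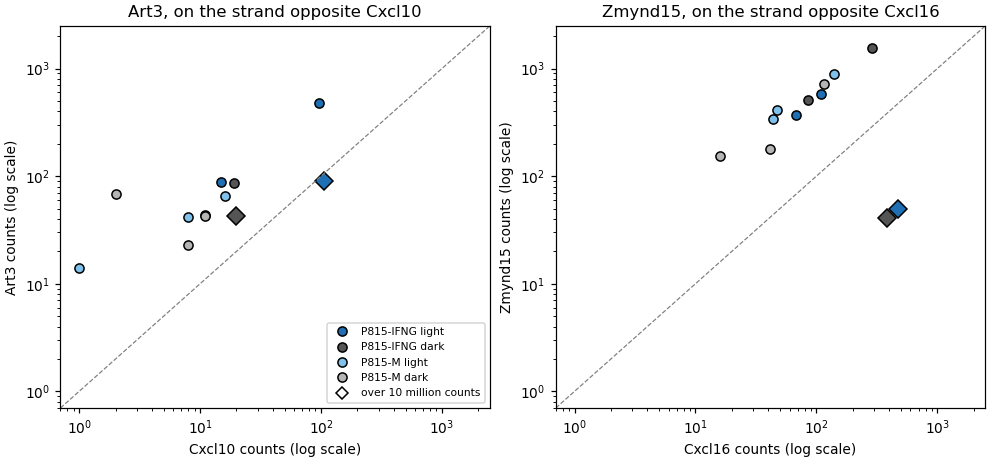
Counts of Art3 against Cxcl10 (left) and of Zmynd15 against Cxcl16 (right) in each of the 12 libraries, on log axes, with the group by color, diamonds for libraries with over 10000000 counts and a dashed line where both counts are equal. For Cxcl16 the deep pair lies below the line, at ratios of 0.105 and 0.106, and the other 10 libraries lie above it, at 4.37 to 9.69.

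Art3, which encodes an ADP-ribosyltransferase family protein, was like Cxcl10 highest in P815-IFNG light replicate 1. Its level was 193, 42.9 and 2.08 CPM in P815-IFNG light and 27, 14.7 and 0.96 CPM in P815-IFNG dark, a log2 change of 2.50 (SE 1.34, adjusted p = 1). Over the 10 libraries Art3 had r = 0.83 with Cxcl10 and r = 0.63 with Cxcl9. With the counts of Art3 added to those of Cxcl10, the log2 change with light was 2.46 in P815-IFNG and 0.03 in P815-M, and the lines differed by 1.99 in light and -0.44 in dark. The origin of the Art3 counts was not tested.

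Other receptors of these ligands included Ccr1, Ccr2, Ccr3, Cxcr6 and the decoy receptors Ackr1 and Ackr2, which take up chemokines without signaling for migration. None of these 6 passed the test in any comparison. In P815-M all 6 had a positive change with light (median 1.37 on the log2 scale, against 0.01 over all genes). Ackr1, found on venular endothelium and red cells, stood at 5.71, 8.14 and 3.58 CPM in P815-M light and 1.17, 2.08 and 0.411 CPM in P815-M dark, a log2 change of 2.27 (SE 0.74, adjusted p = 1) on at most 17 counts a library. Ackr2 was also higher in every P815-M light library, at a log2 change of 1.43 (SE 0.82, adjusted p = 1). Its lowest light value, 5.36 CPM, lay just above its highest dark value, 5.35 CPM. Ackr1 and Ackr2 were the 2 of the 6 with this separation, against 10.1% of all genes tested. In P815-IFNG, 3 of the 6 had a positive change with light (median 0.22).

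Cxcr6, the receptor of Cxcl16 on T and NK cells, was lower in every P815-IFNG light library than in any P815-M light library. The same held for 7.70% of all genes tested, and Cxcr6 had 4, 1 and 15 counts in P815-IFNG light. It held 1.61, 0.488 and 0.347 CPM in P815-IFNG light and 4.67, 1.91 and 10.7 CPM in P815-M light, a log2 difference of -2.97 (SE 1.18, adjusted p = 0.629). Ccr1, a receptor of CCL5 and CCL7, was higher in every P815-IFNG dark library than in any P815-M dark library, by 1.11 (SE 0.51, adjusted p = 0.604). This separation was seen for 10.9% of all genes tested. Ccr2, the receptor of CCL2 on monocytes, had log2 changes with light of 0.67 (SE 0.50) in P815-IFNG and 0.38 (SE 0.52) in P815-M, with an adjusted p of 1 in both.

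Of 21 other chemokine ligands that were tested, 10 had a positive and 11 a negative change with light in P815-IFNG, and again 10 and 11 in P815-M, with none past the test in any comparison. Cxcl14, a chemokine of epithelia and stroma, was at 2.81, 0.976 and 0.764 CPM in P815-IFNG light and at 10.9, 25.8 and 3.42 CPM in P815-IFNG dark, a log2 change of -3.22 (SE 1.40, adjusted p = 1). Cxcl12 and the receptor Cx3cr1 were also lower in every P815-IFNG light library, the latter by -2.21 (SE 0.92, adjusted p = 1), as were 2.75% of all genes tested. Summed endothelial markers (30.3 to 40.2 CPM in light, 42.1 to 121 CPM in dark) and skeletal muscle markers (117 to 142 CPM in light, 145 to 522 CPM in dark) were lower in the same libraries. Those of the other cell types overlapped between light and dark. Among them were fibroblasts (3784 to 6152 against 4565 to 12401 CPM), monocytes and macrophages (824 to 2044 against 694 to 1826 CPM) and dendritic cells (14.6 to 40.6 against 26.2 to 58.9 CPM). The part of any cell type in these chemokine values was not tested. In P815-M, Ccl3, a ligand of CCR1, and Ccl11, the eosinophil chemokine eotaxin, were higher in every light library, at log2 changes of 2.06 (SE 0.77) and 1.03 (SE 0.39), each with an adjusted p of 1. Ccl6 and Ccl9 showed the same separation, which made 4 of the 21 against 10.1% of all genes, and Ccl1 was lower in every light library, against 8.06% of all genes. Among 12 other chemokine receptors tested, 7 had a positive change with light in P815-IFNG and 8 in P815-M, and none passed the test. In P815-M, Ackr3 and Ackr4 were higher and Cxcr2 lower in every light library.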

How the data were processed

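RNA-seq of 12 tumors was used. The authors deposited raw counts of reads for each gene symbol, made with fastp, STAR (2.7.9a) and HTSeq (0.13.5, at its defaults) on an mm10 genome to which the knock-in sequences had been added. The annotation release is not given in the sources used here. The mitochondrial removal and ComBat-seq adjustment of the study's methods are not in these values. DESeq2 (1.32.0) is also listed in the submitters' processing notes. The chemokines, the other gene lists and the tests were chosen with earlier results of these data known.

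Members were taken by symbol and described in every comparison. From the other chemokine lists the 3 genes with the largest absolute change at a mean of at least 5 CPM in the higher group were eligible to be named, beside those whose groups did not overlap, which were chosen after their values were seen. The planned share of Cxcl10 among Cxcl9, Cxcl10 and Cxcl11 was computed over Cxcl9 and Cxcl10. Values of 2 other genes of the planned lists are not reported here. Of 32288 rows, 13 mitochondrial rows were removed, and the 18804 genes with a total of at least 10 counts were tested. R 4.3.3 with edgeR 4.0.16 fitted 1 mean per group to all 12 libraries, with TMM scaling, the quasi-likelihood test and Benjamini-Hochberg adjustment. Shares were compared by exact permutation in scipy 1.17.1. Coordinates are from the GENCODE annotation of GRCm38, of which mm10 is another name. Alternatives included DESeq2 1.42.0, ComBat-seq of sva 3.50.0, batch as a term (the deep libraries against the others), other scalings and filters, and each library left out.

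The labels give replicate numbers in each group. P815-IFNG light and dark libraries of the same number deviated together from their group means (r = 0.83, 0.81 and 0.95 over 12173 genes). The replicates numbered 3 are the deep libraries, and their difference from the others moves all 3 deviations alike in both groups. This measure therefore cannot show whether the numbers pair these libraries. The fit reported has no block, as planned, and the fit with the block is an alternative. In P815-M light against dark r was -0.029, 0.017 and -0.32. Between the lines it was 0.16, 0.05 and 0.22 in light and -0.16, 0.27 and 0.19 in dark, with the same number the best match for 4 of 6, which does not reach the 0.1 required of every pair. The fits were tested on simulated data with no difference between the deep libraries and the others beyond depth. That test therefore cannot show how the fits handle such a difference. Total counts of 2211234 to 42338096 per library limit the precision, as does the difference between the deep libraries and the others.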

Additional observations from a re-analysis of the deposited data

How the results depend on the processing

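Of 341 fitted values of the 9 chemokine genes under the alternatives other than left-out libraries, 301 kept their direction and their side of the threshold, 5 passed the threshold that they had missed, and 35 turned in direction, all of them uncalled. The 5 were Cxcl9 and Cxcl10 after ComBat-seq, given with their values in the report. The cause of these shifts was not tested. In the order of light against dark in P815-IFNG, the same in P815-M, the lines in light, the lines in dark and their difference in response to light, the count of genes called was 0, 0, 3, 2 and 0. It was 4, 1, 41, 38 and 4 with DESeq2, 1, 157, 39, 371 and 2 without the deep libraries, 2, 194, 82, 290 and 3 with batch as a term, and 180, 261, 272, 579 and 49 after ComBat-seq. With only the libraries compared it was 244 for P815-M light against dark and 0 and 0 between the lines, and in dark it was 4 with DESeq2's size factors, 4 with filterByExpr and 7 with the replicate block. The block changed no call of the 9 genes. In P815-IFNG light against dark each library had its highest correlation with its own number, which the deep libraries shape. The block left the count of calls there at 0.

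The log2 fold changes that turned were as follows. In P815-IFNG light against dark, Cxcr3 was 0.05 with the replicate block and 0.06 after ComBat-seq, Ccl5 was -0.25 and Ccl7 0.41 without the deep libraries, and Ccl7 was 0.02 with batch as a term. In P815-M light against dark, Ccl8 was -0.16 with the replicate block. In P815-IFNG against P815-M in light, the replicate block gave Cxcl9 -0.13, Cxcr3 0.58 and Ccl5 0.03, leaving out the deep libraries gave Cxcr3 0.15, Ccl8 -0.59 and Cxcl16 0.09, batch as a term gave Cxcr3 0.28, Ccl5 0.07, Ccl8 -0.00 and Cxcl16 0.28, and ComBat-seq gave Cxcr3 0.50, Ccl5 0.22, Ccl7 -0.02 and Cxcl16 0.44. In dark, filterByExpr gave Cxcl9 0.00, the replicate block gave Cxcl10 -0.20, Ccl2 0.04 and Ccl12 -0.10, and the added counts of Art3, an alternative chosen after seeing the data, gave Cxcl10 -0.44. Leaving out the deep libraries gave Cxcl9 0.58, Ccl7 -0.31 and Ccl12 -0.20 there, batch as a term gave Cxcl9 0.09, Ccl2 0.04, Ccl7 -0.11 and Ccl12 -0.18, and ComBat-seq gave Ccl2 0.23, Ccl7 -0.13 and Ccl12 -0.35. The light against dark difference in the share of Cxcl10 in P815-IFNG turned to 5.16 points without the deep libraries, and the share with Cxcl9 alone is the same quantity because Cxcl11 was not analysed here.

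Leaving out 1 library at a time gave 0 calls for light against dark in either line and for the difference between the lines, 1 to 4 between the lines in light and 1 to 2 in dark. The difference in the share of Cxcl10 ranged from -24.8 to 2.62 points for P815-IFNG light against dark, -5.93 to -0.497 in P815-M, 8.03 to 13.5 between the lines in light and 4.91 to 32.3 in dark. Log2 fold changes that turned in direction ranged, in P815-IFNG light against dark, Cxcl9 from -0.21 to 3.47, Cxcr3 from -0.95 to 0.84, Ccl5 from -0.07 to 0.56, Ccl7 from -1.19 to 1.41, Ccl12 from -1.81 to 0.18, Cxcl16 from -1.05 to 0.67. In P815-M light against dark, values ran for Cxcl10 from -0.51 to 1.01, Cxcr3 from -5.60 to 1.35, Ccl7 from -0.89 to 0.24, Ccl8 from -0.63 to 0.93, Cxcl16 from -0.05 to 1.52. Between the lines in light, values ran for Cxcl9 from -1.18 to 1.20, Cxcr3 from -0.98 to 5.98, Ccl2 from -0.64 to 0.85, Ccl5 from -0.50 to 0.50, Ccl8 from -0.57 to 1.36, Cxcl16 from -0.76 to 0.36. Between the lines in dark, values ran for Cxcl9 from -1.81 to 0.59, Cxcl10 from -0.71 to 0.71, Cxcr3 from -0.50 to 1.29, Ccl2 from -0.48 to 0.25, Ccl7 from -0.31 to 1.79, Ccl12 from -0.19 to 1.79, Cxcl16 from -0.38 to 1.73. In the difference between the lines, values ran for Cxcl9 from -1.17 to 2.52. The values of -5.60 and 5.98 for Cxcr3 rest on a group at 0 counts, depend on the prior count and are no bounds. For Ccl12 and Ccl5 in P815-M light against dark, which kept their direction, values ran from -7.51 to -0.96 and from 1.54 to 3.35, the value of -7.51 resting on light libraries at 0 counts. With plain library totals in place of TMM the summed CPM by role moved by less than the spread between replicates. The depth limits Cxcr3, Ccl5 and Ccl12, which had 11 counts or fewer in each library outside the deep pair.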
